A study of Mus musculus with 6 samples.

Results

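The genes described here are 33 listed nuclear receptors of mouse liver: the bile acid and sterol receptors, the hepatocyte nuclear factors, the retinoid receptors, the thyroid hormone and vitamin D receptors, the testicular and COUP orphan receptors, the steroid receptors, the NR4A and estrogen-related receptors, and PPAR delta and gamma. Members were found by gene symbol in the array platform's annotation, and the clock, xenobiotic, glucocorticoid and PPAR alpha receptors were not among them. A probe set of its own was found for 32 of the 33 genes, among 18193 genes on the array, and the 32 genes held 82 of the 45037 probe sets. Nr1h2, the ubiquitous liver X receptor, was not analysed here. A nuclear receptor is a transcription factor that binds short DNA elements and changes the transcription of nearby genes, in most cases when a small lipid-soluble ligand such as a bile acid, a sterol, a retinoid or a hormone binds to it. Many of these receptors act as partners of a retinoid X receptor, and all depend on coactivators and corepressors that they recruit. In hepatocytes they control bile acid synthesis, lipid and glucose metabolism and hepatocyte identity.

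The study set the untreated liver of NZB females beside that of SM females. SM/J and NZB/BinJ are inbred strains, and each of the 6 mice, 3 per strain, came from the Jackson Lab and gave 1 array of total liver RNA. All mice were 8 weeks old, ate chow after weaning at 3 weeks, and were fasted for 4 hours before dissection, and their livers were perfused with 50 mL of PBS and snap frozen. The labels call the mice biological replicates, and nothing in them says whether littermates were used. Whole liver holds all its cell types together, and a comparison of 2 inbred strains cannot point to any locus. The labels name no batch, dissection time of day or array date.

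Values are log2 expression after RMA, a method that corrects, normalises and summarises the probes of a probe set. A difference is NZB minus SM on that scale, so that 1 unit is a factor of 2. Each gene was read through its brightest probe set, the one with the highest mean over all 6 arrays, and was called where limma's adjusted p, taken over all 45037 probe sets, was below 0.05. Levels of different genes come from different probes. Where genes are listed or drawn in order of level, that order is no ranking of their RNA amounts. Arrays correlated at 0.995 to 0.997 within a strain and at 0.985 to 0.987 between strains, and the medians ran from 6.60 to 6.66. One library stood apart from its label: SM replicate 2 read 7.32 for Xist, the RNA of the inactive X chromosome in females, where the other 5 arrays read 12.6 to 12.9, while its highest Y-linked reading (7.92) lay within the range of the others (7.70 to 8.04). Sry alone spanned 7.70 to 8.04 over the 6 arrays. The brightest probe sets of the other Y-linked genes read lower on every array: Eif2s3y 3.84 to 4.01, Uty 4.50 to 4.88, Usp9y 5.11 to 5.23, Kdm5d 5.40 to 5.67 and Zfy2 6.34 to 6.69. Because of the Xist reading, every receptor call below is also given without SM replicate 2. Hepatocyte marker genes read at a mean of 13.33 to 13.44 in SM and 13.13 to 13.34 in NZB, with albumin at 14.9 in every liver. Over all probe sets 14.8% were called, 2745 higher and 3914 lower in NZB, and 4117 probe sets were called without SM replicate 2, 4413 without NZB replicate 2 and 3741 without NZB replicate 3. With array medians aligned the split was 2080 higher and 4556 lower.

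Of the 32 receptors measured here, 5 were called lower in NZB and 2 higher. That is 21.9% called, near the 18.3% of all 18193 genes. The promoters of the 5 lower ones are shown, and their shared direction follows from that choice. The sequences are those of RefSeq, build GRCm38.p6, from 250 bases before the transcription start to 50 bases from it, read 5′ to 3′ on the gene's strand. They are reference sequences and not those of SM or NZB, and sequence differences between the strains were not examined. Capitals mark the GC box GGGCGG, searched on both strands with overlapping matches counted. The hexamer AGGTCA, the core of many nuclear receptor elements, was searched in the same way, and the letters occur in none of these 5 windows. The windows lie at chr2:27676951-27677250 on the plus strand for the upstream start of Rxra, at chr2:163546905-163547204 on the plus strand for the downstream start of Hnf4a, at chr19:6921759-6922058 on the minus strand for Esrra, at chr6:92092183-92092482 on the plus strand for Nr2c2 and at chr8:76902080-76902379 on the plus strand for Nr3c2.
Rxra: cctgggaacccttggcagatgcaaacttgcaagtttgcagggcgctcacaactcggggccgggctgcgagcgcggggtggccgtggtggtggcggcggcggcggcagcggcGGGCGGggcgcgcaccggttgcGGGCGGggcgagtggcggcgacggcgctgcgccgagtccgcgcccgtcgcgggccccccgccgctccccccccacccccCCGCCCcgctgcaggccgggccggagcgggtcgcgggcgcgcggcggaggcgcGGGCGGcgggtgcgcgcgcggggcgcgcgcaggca
Hnf4a: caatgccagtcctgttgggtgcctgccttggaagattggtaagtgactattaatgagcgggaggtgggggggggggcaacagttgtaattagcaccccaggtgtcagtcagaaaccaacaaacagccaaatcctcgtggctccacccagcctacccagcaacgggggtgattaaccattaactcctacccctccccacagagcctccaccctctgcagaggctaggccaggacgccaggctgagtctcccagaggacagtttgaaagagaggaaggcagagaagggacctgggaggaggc
Esrra: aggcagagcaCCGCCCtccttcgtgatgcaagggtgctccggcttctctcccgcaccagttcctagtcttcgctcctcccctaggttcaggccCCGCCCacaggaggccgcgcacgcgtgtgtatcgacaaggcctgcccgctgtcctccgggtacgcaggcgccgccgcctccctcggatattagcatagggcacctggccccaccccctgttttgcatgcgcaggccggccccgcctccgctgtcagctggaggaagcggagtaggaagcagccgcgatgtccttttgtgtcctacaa
Nr2c2: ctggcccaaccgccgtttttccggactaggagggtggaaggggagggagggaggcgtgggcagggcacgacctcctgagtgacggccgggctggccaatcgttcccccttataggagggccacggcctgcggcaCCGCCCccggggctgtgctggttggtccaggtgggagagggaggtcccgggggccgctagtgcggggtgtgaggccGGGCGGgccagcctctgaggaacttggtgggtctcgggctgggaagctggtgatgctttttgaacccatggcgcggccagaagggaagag
Nr3c2: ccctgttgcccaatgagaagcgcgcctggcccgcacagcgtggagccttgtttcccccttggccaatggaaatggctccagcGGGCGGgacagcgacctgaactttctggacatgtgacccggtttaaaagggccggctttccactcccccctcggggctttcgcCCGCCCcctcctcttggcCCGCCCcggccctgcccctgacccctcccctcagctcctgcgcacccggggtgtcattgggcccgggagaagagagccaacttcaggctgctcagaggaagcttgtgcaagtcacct

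The Rxra window held 4 GC boxes, those of Esrra and Nr2c2 2 each and that of Nr3c2 3, while the Hnf4a window held none. G and C content was 83.0% in Rxra, 57.3% in Hnf4a, 66.0% in Esrra, 69.0% in Nr2c2 and 65.7% in Nr3c2. Of the starts not printed, the downstream Rxra window held AGGTCA at 2 places and the upstream Hnf4a window held 1 GC box. RefSeq's table matched 31 of the 33 listed genes with 51 promoters, and Hnf4g and Thra were not matched. The GC box stood in 25 of these 51 promoters, and in 35.7% of all 32851 promoters of the same length. AGGTCA stood in 10 of the 51 and in 16.3% of all, the CCAAT letters in 17 of the 51 and in 37.4% of all, and TATAAA in 7 of the 51 and in 13.6% of all. Median G and C content was 59.3% for the 51 and 52.7% for all promoters. A match to these letters is a description of the window and not a binding site.

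Liver RNA of these females held 24 of the 32 receptors above background and 8 at background level. The background level was 7.37, the 95th percentile of the means of 86 probe sets for olfactory, vomeronasal and taste receptors, which liver does not make. Members with a mean of 9 or more numbered 11: Hnf4a, Rxra, Nr2f6, Nr5a2, Nr1h4, Nr0b2, Rxrb, Nr1h3, Esr1, Nr2c2 and Nr2f2. The other 13 lay between background and 8.29: Esrra, Thra, Esrrb, Nr4a1, Nr4a3, Nr2c1, Nr6a1, Nr4a2, Rxrg, Pparg, Rarg, Rara and Nr3c2. At background level were Ppard, Thrb, Rarb, Esrrg, Vdr, Hnf4g, Pgr and Nr2f1, with means from 4.27 for Nr2f1 to 7.27 for Ppard, and Nr3c2 lay just above the level at 7.42. A receptor at background level may still be made in a few cells or be missed by its probes. The count above background was 14 when the level was set at the highest reading of a Y-linked probe set (8.04), and 28 when it was set at the 75th percentile of the chemosensory probe sets (6.41).

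**Figure D1:**
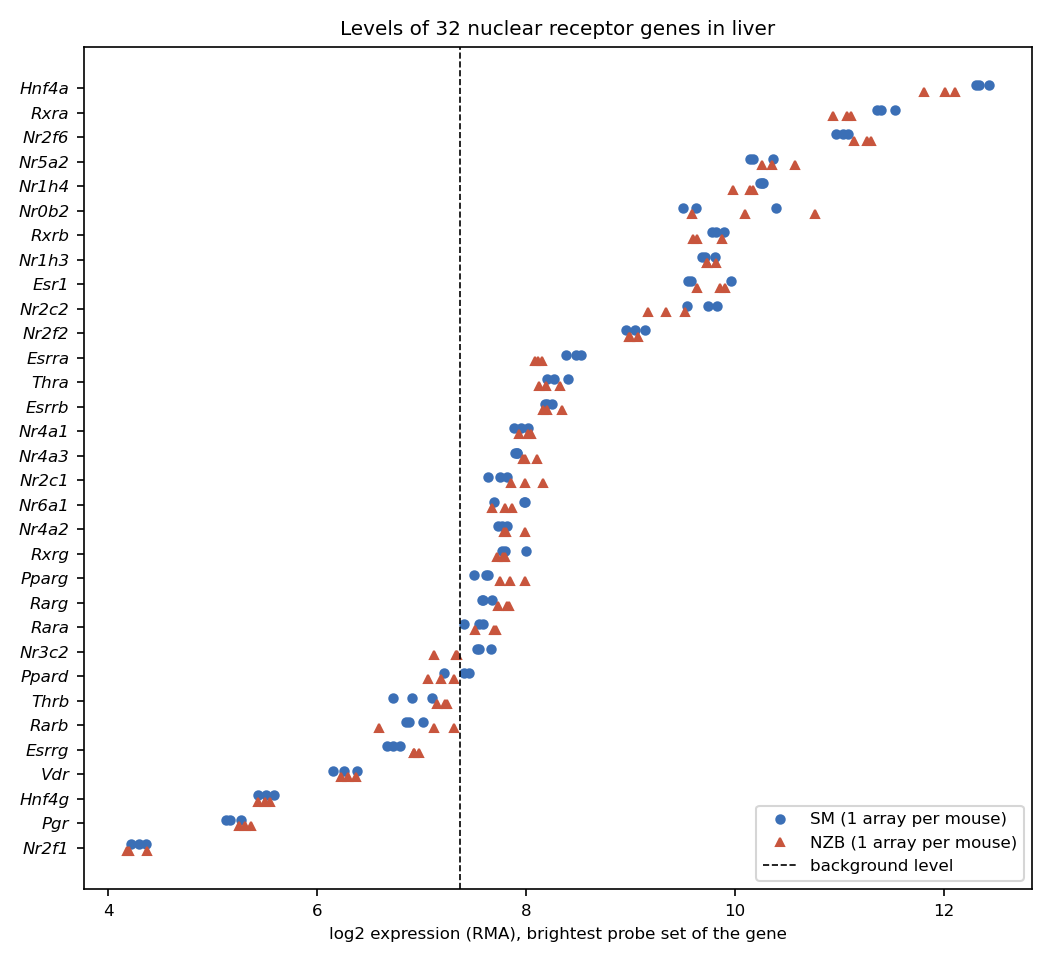
Level of each of the 32 receptor genes in each liver, as log2 expression of its brightest probe set on the horizontal axis, with circles for the 3 SM arrays, triangles for the 3 NZB arrays and a dashed line at the background level of 7.37. Genes are sorted by their mean for display, and the 3 circles of Hnf4a, Rxra and Esrra lie to the right of the 3 triangles.

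Of the 32 receptor genes, 7 were called between the strains, 5 lower in NZB (Rxra, Hnf4a, Nr2c2, Esrra and Nr3c2) and 2 higher (Pparg and Esrrg). That is 21.9% of the members, a share near the 18.3% of all 18193 genes. Among the 24 members above background 6 were called (25.0%), 1 higher and 5 lower. Nr3c2, among the 5, passed the level only through SM, the strain in which it was higher, and of the 23 members above it in both strains 5 were called, 1 higher and 4 lower. Of the 9262 genes above background 28.4% were called, 8.83% higher and 19.6% lower. With quantile normalisation the 9262 genes split into 1076 higher and 1304 lower, where the deposited values gave 818 higher and 1815 lower. Strain ranges did not overlap for 13 of the 32 members, against 39.4% of all genes, and for 11 of the 24, against 50.9% of genes above background. Differences between the strains were small in the brightest probe sets, and the largest among the 32 was -0.39, a factor of 1.31, in Rxra. Over all 82 member probe sets the largest was 0.54, in a background-level probe set of Esr1. The median over the 24 brightest ones above background was 0.023, against -0.052 over all genes above background. The median of the absolute differences was 0.14 for the 24 members and 0.16 for those genes. Without SM replicate 2 the called members numbered 2, Rxra and Esrra. Without SM replicate 1 there were 3 (Hnf4a, Rxra and Esrra), and without NZB replicate 2 or NZB replicate 3 there were 4. At an unadjusted p below 0.05 there were 12.

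**Figure D2:**
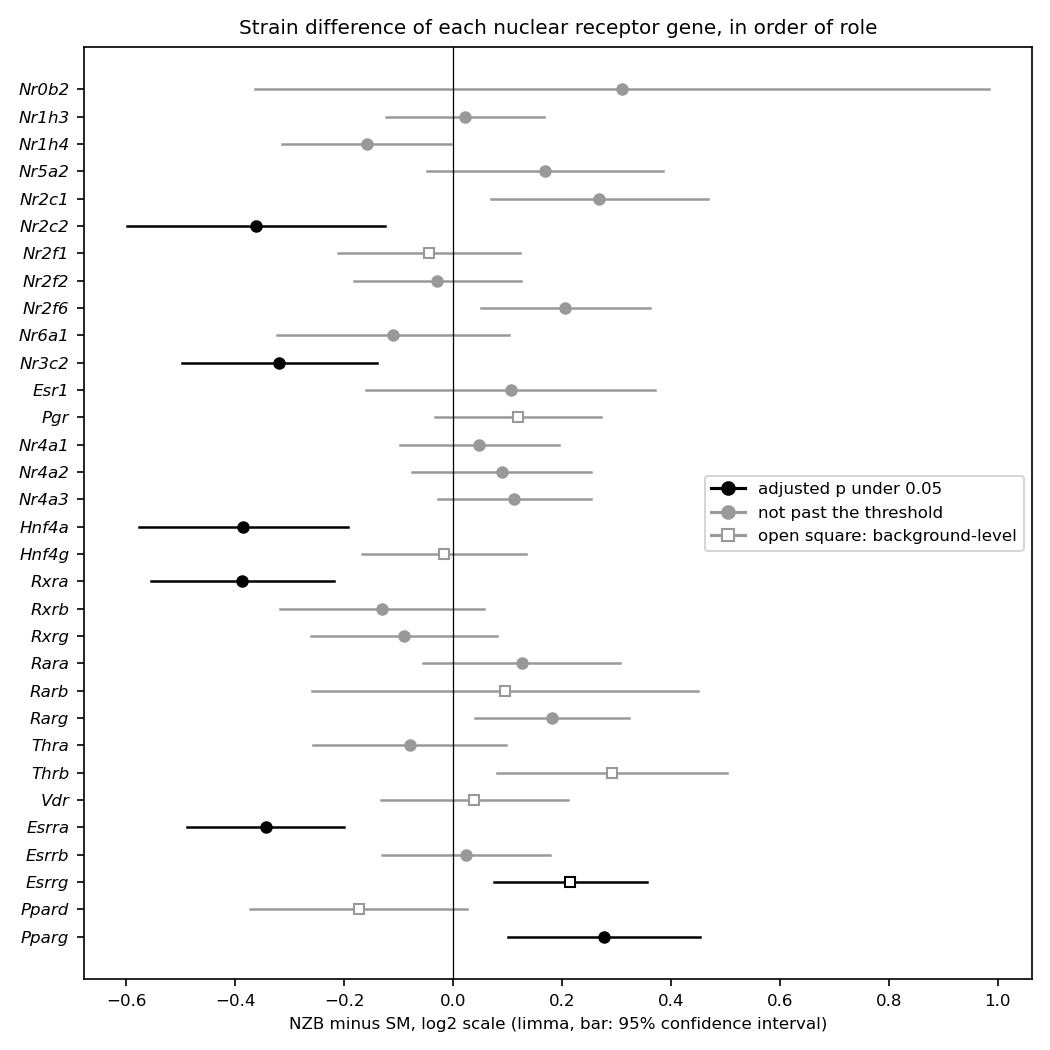
NZB minus SM difference of each of the 32 receptor genes on the log2 scale, with its 95% confidence interval from limma (n = 3 mice per strain), in order of role. Black marks an adjusted p below 0.05 and open squares mark background-level genes. The 5 lower genes lie between -0.39 and -0.32, and the widest interval is that of Nr0b2.

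Rxra and Hnf4a, 2 receptors that hepatocytes make abundantly, were the members whose brightest probe sets differed most. RXR alpha is the common partner of the bile acid, sterol, thyroid hormone, vitamin D, retinoic acid and fatty acid receptors in liver. Its gene read 11.36, 11.40 and 11.53 in SM and 11.12, 10.94 and 11.08 in NZB. All 3 SM livers lay above all 3 NZB livers. The difference was -0.39 (SE 0.074, adjusted p = 0.00882), a factor of 1.31, with means of 11.43 ± 0.088 in SM and 11.05 ± 0.091 in NZB (SD, n = 3 mice each). This call held without each array in turn (adjusted p = 0.0118 to 0.0344, and 0.0293 without SM replicate 2), but the mean of the gene's 3 probe sets differed by -0.067 (adjusted p = 0.558). The second Rxra probe set read 9.44, 10.11 and 10.14 in SM and 9.99, 10.10 and 10.12 in NZB, so that the ranges overlapped and SM replicate 1 was the low value; its difference was 0.17 (SE 0.16, adjusted p = 0.535). In a bulk sample, fewer cells of a type and less RNA per cell cannot be told apart. The other retinoid X receptors were not called: Rxrb read 9.82, 9.79 and 9.90 in SM and 9.60, 9.64 and 9.87 in NZB and differed by -0.13 (SE 0.083, adjusted p = 0.343). Rxrg, better known from muscle and brain, read 7.72 to 8.00 over the 6 livers and differed by -0.09 (SE 0.075, adjusted p = 0.477), with the highest value in SM replicate 1.

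Hnf4a encodes HNF4 alpha, a receptor that keeps hepatocytes differentiated and drives many of their secreted proteins and enzymes. It read 12.31, 12.34 and 12.43 in SM and 12.02, 11.81 and 12.11 in NZB. Each NZB liver was below each SM liver, and NZB replicate 2 was the lowest. The difference was -0.38 (SE 0.085, adjusted p = 0.0169), a factor of 1.31. Without SM replicate 2 it was -0.39 with an adjusted p of 0.0513, and the call also ended without probe sets marked for cross-hybridisation (adjusted p = 0.0602) and for the mean of the 4 probe sets (-0.25, adjusted p = 0.136). The other 3 probe sets differed by -0.40 (SE 0.12, adjusted p = 0.0605), -0.26 (SE 0.10, adjusted p = 0.121) and 0.052 (SE 0.20, adjusted p = 0.897). In the last of these SM replicate 1 read 8.93, while the other 5 livers read 9.46 to 9.80. Hnf4g, the related receptor of gut and pancreas, was at background level, with values from 5.43 to 5.58 and a difference of -0.016 (SE 0.067, adjusted p = 0.904).

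Of 13 measured target genes of HNF4 alpha, 3 were lower, none was higher and 10 were not called, and their median difference was -0.10, against -0.052 for all genes above background. The largest differences were in Tat, the tyrosine aminotransferase, at -0.73 (SE 0.091, adjusted p = 0.00103), and Pck1, the gluconeogenic phosphoenolpyruvate carboxykinase, at -0.41 (SE 0.10, adjusted p = 0.0280). The third was Abcc6 (-0.25). Of the 13 differences 11 were below 0, beside 5453 of 9262 for all genes above background. The abundant secreted-protein targets Apob (0.0014) and Ttr (0.061) were the 2 above 0, and neither was called. Only 1 of the 3 was called without SM replicate 1, SM replicate 2, NZB replicate 2 or NZB replicate 3, with Tat called in each of these. All 13 lay above background, where 19.6% of genes were lower. Tat and Pck1 are also under other controls, among them glucocorticoids and insulin, and the HNF4A list is no measure of the receptor's activity alone.

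**Figure D3:**
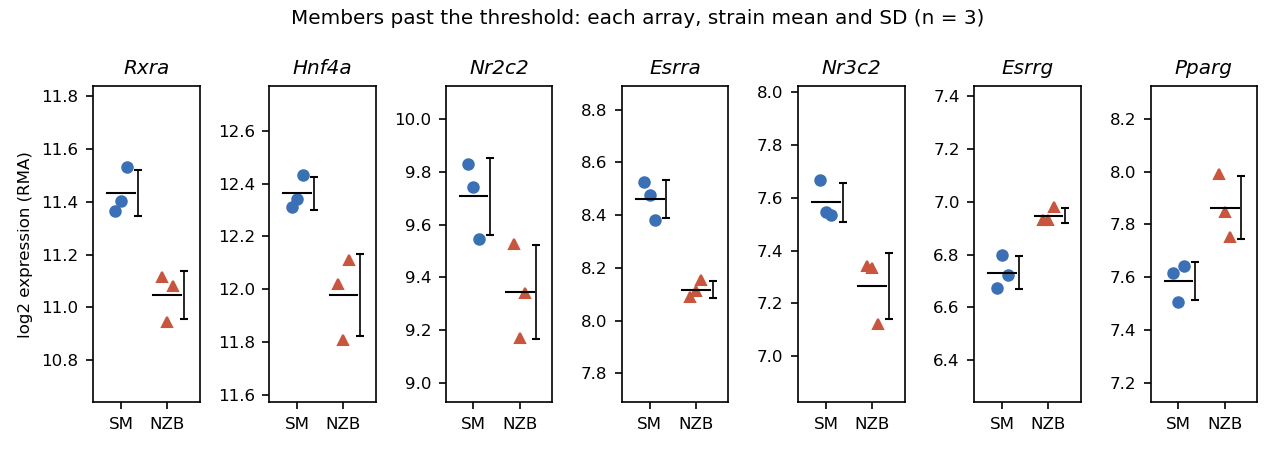
Each of the 7 called receptor genes in a panel of its own, with log2 expression of every liver (circles SM, triangles NZB), the strain mean as a horizontal line and the SD as a bar (n = 3). All vertical axes span the same width around the gene's mean and do not start at 0, and no panel shows an overlap of the strains.

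Esrra was lower in NZB in every setting tried. ERR alpha is an orphan receptor that, with the PGC-1 coactivators, drives genes of mitochondrial respiration and fatty acid oxidation. Its brightest probe set read 8.52, 8.48 and 8.38 in SM and 8.09, 8.11 and 8.15 in NZB. The NZB values lay within 0.063 of each other and below all SM values. The difference was -0.34 (SE 0.064, adjusted p = 0.00747), a factor of 1.27, and it was called in all 14 alternative settings, with an adjusted p of 0.0330 without SM replicate 2. A second, background-level probe set read 7.09, 7.49 and 7.40 in SM and 6.88, 7.29 and 7.22 in NZB, with overlap, and differed by -0.20 (SE 0.13, adjusted p = 0.353). Esrrb, known from embryonic stem cells, read 8.16 to 8.34 over the 6 livers and differed by 0.023 (SE 0.068, adjusted p = 0.862). That probe set is of a kind marked for cross-hybridisation, and the gene's other 2 were at background level, with means of 6.88 and 5.77. Esrrg, which is induced by fasting in liver, was at background level and read 6.67, 6.80 and 6.72 in SM and 6.93, 6.93 and 6.98 in NZB. It was higher, with a difference of 0.22 (SE 0.062, adjusted p = 0.0479), but the call was absent in 11 of 13 settings, including each in which an array was left out (adjusted p = 0.0664 to 0.148, the lowest without SM replicate 2). Its 2 dimmer probe sets differed by -0.31 and -0.52, so that the mean of its probe sets turned to -0.20 (adjusted p = 0.0535).

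Both PGC-1 coactivator genes differed more than any receptor listed here. Ppargc1b, which encodes PGC-1 beta, read 9.82, 10.14 and 9.89 in SM and 8.75, 8.91 and 8.80 in NZB. The lowest SM value lay 0.91 above the highest NZB value. Ppargc1a, which encodes PGC-1 alpha and is induced by fasting, read 8.81, 9.02 and 8.45 in SM and 7.87, 7.78 and 7.37 in NZB, and again no value overlapped. The differences were -1.13 (SE 0.09, adjusted p = 8.82e-05) and -1.09 (SE 0.16, adjusted p = 0.00257), factors of 2.19 and 2.12, and both were called in all 14 settings. Among 11 measured genes known as ERR and PGC-1 targets 6 were lower, none was higher, and the median was -0.34, with Esrra itself among the 6. Of these 11 genes 10 lay above background, where 19.6% of genes were lower and the median was -0.052. The others were Idh3a and Acadm, enzymes of the citric acid cycle and of medium-chain fatty acid oxidation, at -0.72 (SE 0.069, adjusted p = 0.000247) and -0.65 (SE 0.068, adjusted p = 0.000407), and Ndufs1 (-0.44), Mfn2 (-0.46) and Vegfa (-0.44). The count stayed at 6 without any 1 array. With the mean of each gene's probe sets 3 were lower, and for Idh3a that mean differed by -0.12 (adjusted p = 0.200). The respiratory chain and ATP synthase genes Cycs, Cox6c and Atp5b were not called, with differences of 0.11 for Cycs, -0.053 for Cox6c and -0.076 for Atp5b. Sdhb, another respiratory chain gene, was not called either, but its NZB values all lay below its SM values, by a gap of 0.054. Ndufs1, among the 6 lower genes, also belongs to the respiratory chain.

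The receptors' coregulators, which carry histone acetyltransferase, methyltransferase or deacetylase activity to the receptors or hold such complexes together, were lower in NZB in 8 of 18 measured cases. None was higher, and 10 were not called. All 18 lay above background, where 19.6% of genes were lower and 5453 of 9262 differences were below 0. The 18 differences were all below 0 with the deposited values, and their median was -0.29, against -0.052 for those genes. With quantile normalisation 16 were below 0, without probe sets marked for cross-hybridisation 13 of 16, and with the mean of each gene's probe sets 13 of 18. The lower count was 13 when probe sets at background level were left out of the fit. After the PGC-1 genes, the acetyltransferase gene Ep300 (-0.44, SE 0.07, adjusted p = 0.00373) and the p160 coactivator gene Ncoa2 (-0.44, SE 0.09, adjusted p = 0.0122) differed most. The deacetylase gene Hdac3, which works with corepressors, differed by -0.41, the mediator subunit gene Med1 by -0.35, the methyltransferase gene Carm1 by -0.27 and Ncoa1 by -0.23. Ep300 and Hdac3 kept their call in every setting that held them. Carm1 was called in 6 of 13 settings and Ncoa1 in 5 of 14, neither with quantile normalisation (adjusted p = 0.205 and 0.151). Of the 18, 4 were called without SM replicate 2 and 4 without NZB replicate 3, where neither Ncoa2 (adjusted p = 0.052 and 0.0551) nor Med1 (0.0733 and 0.0779) was called. With the mean of its probe sets Med1 differed by -0.096 (adjusted p = 0.285). The list's mean level was 8.87 to 9.01 in SM and 8.56 to 8.66 in NZB.

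**Figure D4:**
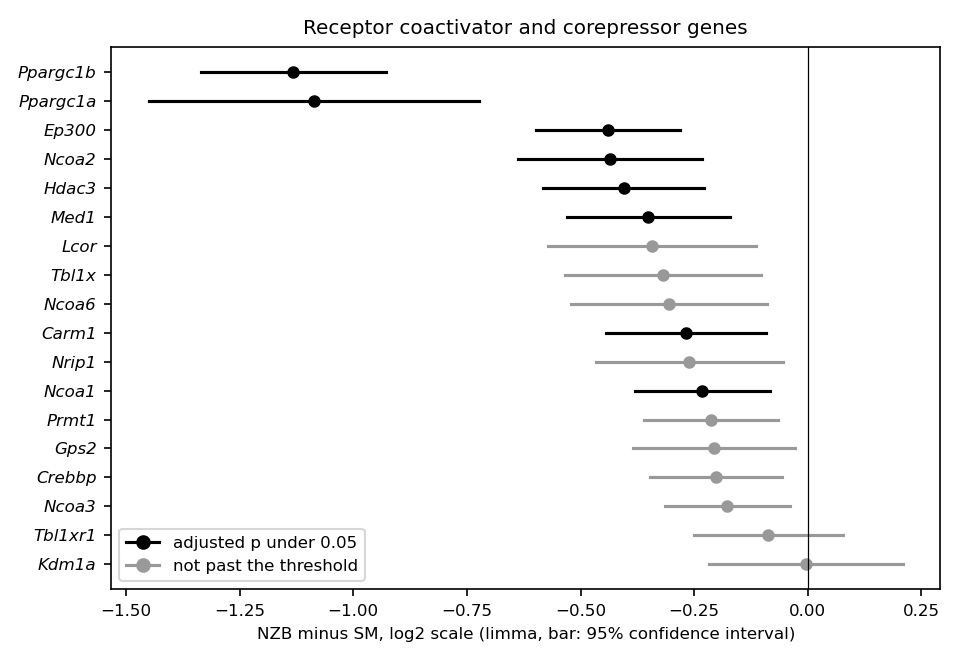
NZB minus SM difference of each of the 18 measured coregulator genes on the log2 scale, with its 95% confidence interval from limma (n = 3 mice per strain), black where the adjusted p was below 0.05. Ppargc1b and Ppargc1a lie at -1.13 and -1.09 and the other 16 between -0.44 and -0.0039.

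The testicular receptors TR4 and TR2, encoded by Nr2c2 and Nr2c1, are orphan receptors that bind direct repeats and can act against other receptors at the same sites. Nr2c2 read 9.83, 9.74 and 9.55 in SM and 9.53, 9.17 and 9.34 in NZB. The lowest SM value exceeded the highest NZB value by 0.02. The difference was -0.36 (SE 0.10, adjusted p = 0.0488), a factor of 1.28. It was called without SM replicate 3 or NZB replicate 1 but not without any of the other 4 arrays (adjusted p up to 0.152, and 0.139 without SM replicate 2), nor with quantile normalisation. Its other 5 probe sets, all at background level, differed by -0.19 to 0.27, and the mean of all 6 was at 0.0001. Nr2c1 read 7.64, 7.75 and 7.81 in SM and 7.99, 8.16 and 7.86 in NZB, without overlap and in the opposite direction. That difference was 0.27 (SE 0.088, adjusted p = 0.0753) and was called in no setting, while its second probe set, also above background, differed by 0.011.

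The COUP transcription factors bind many of the same elements as HNF4 alpha and RXR partners. Nr2f6 (EAR2) read 11.08, 10.97 and 11.04 in SM and 11.27, 11.14 and 11.31 in NZB, and its strains did not overlap. It differed by 0.21 (SE 0.069, adjusted p = 0.0788), with a 95% interval of 0.051 to 0.36, and was called only with quantile normalisation (adjusted p = 0.0315). Nr2f2 (COUP-TFII) gave different answers in its 2 probe sets above background. The brightest read 8.96, 9.05 and 9.14 in SM and 8.99, 9.07 and 8.99 in NZB, with overlap, and differed by -0.029 (SE 0.068, adjusted p = 0.825). The next read 8.66, 8.61 and 8.41 in SM and 8.30, 8.06 and 8.09 in NZB, without overlap, and was lower, with a difference of -0.41 (SE 0.091, adjusted p = 0.0170), a call that ended without SM replicate 2 (adjusted p = 0.0655), NZB replicate 2 (0.065) or NZB replicate 3 (0.0728). Nr2f1 (COUP-TFI) was at background level, with values from 4.18 to 4.37 and a difference of -0.044 (SE 0.074, adjusted p = 0.742). Nr6a1, the germ cell nuclear factor, read 7.67 to 7.99 and differed by -0.11 (SE 0.094, adjusted p = 0.484). Among its 5 probe sets 1 differed by -0.28 and another by 0.23, neither called.

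**Figure D5:**
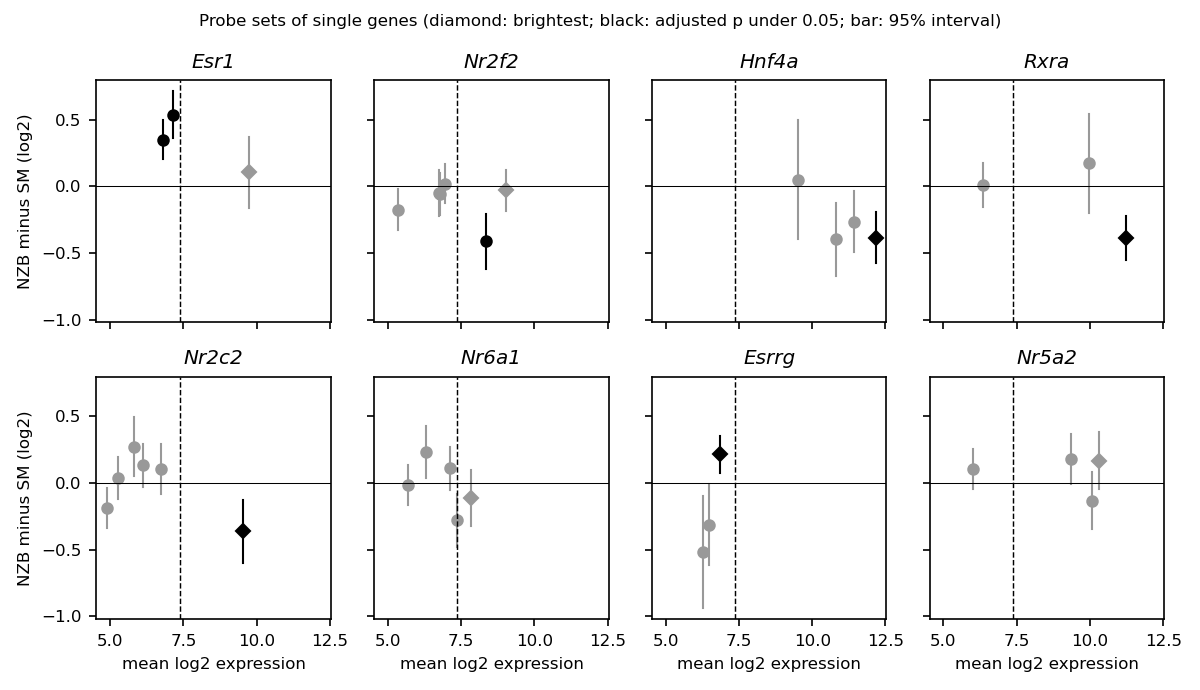
Difference between the strains (NZB minus SM, log2, with 95% intervals) against mean level for every probe set of 8 receptor genes, chosen after their values were seen. Diamonds are the brightest probe sets, black marks an adjusted p below 0.05 and the dashed line is the background level. In Esr1 and Nr2f2 a called probe set sits beside an uncalled brightest one.

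None of the 4 measured bile acid and sterol receptors was called. Nr1h4 encodes FXR, the bile acid receptor, which represses bile acid synthesis and raises bile salt export. It read 10.25, 10.26 and 10.27 in SM and 10.14, 9.98 and 10.18 in NZB. The SM livers lay within 0.029 of each other and above every NZB liver. The difference was -0.16 (SE 0.069, adjusted p = 0.163), with a 95% interval of -0.31 to -0.0034. Nr0b2 encodes SHP, a receptor without a DNA-binding domain that FXR induces and that represses Cyp7a1. It read 9.51, 9.62 and 10.39 in SM and 10.77, 9.59 and 10.09 in NZB. NZB replicate 1 and SM replicate 3 were the high values, the strains overlapped, and the spread within strains (SD 0.54) was larger than that of 99.8% of genes. Its difference was 0.31 (SE 0.30, adjusted p = 0.542), with an interval of -0.36 to 0.98. Nr5a2 encodes LRH-1, a monomeric receptor that SHP restrains. It read 10.14, 10.36 and 10.17 in SM and 10.26, 10.35 and 10.58 in NZB and differed by 0.17 (SE 0.096, adjusted p = 0.283), with differences of -0.13 and 0.18 in its other 2 probe sets above background. Nr1h3 encodes LXR alpha, the oxysterol receptor that raises sterol efflux and fatty acid synthesis. It read 9.72, 9.69 and 9.81 in SM and 9.74, 9.82 and 9.73 in NZB, with overlap, and differed by 0.022 (SE 0.064, adjusted p = 0.862), with an interval of -0.12 to 0.17.

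Several target genes of these receptors were called. Of 14 measured FXR, SHP and LRH-1 targets, 6 were lower, 1 was higher and 7 were not called, with a median of -0.12, and 12 lay above background, where 19.6% of genes were lower and 8.83% higher. The list holds both genes that these receptors repress, such as Cyp7a1, and genes that they raise. Its count and median are therefore no measure of a receptor's activity. Cyp7a1, which catalyses the first and limiting step from cholesterol to bile acids, read 10.94, 11.71 and 12.06 in SM and 10.06, 10.13 and 9.45 in NZB, without overlap, and was lower, with a difference of -1.68 (SE 0.27, adjusted p = 0.00368). Scarb1, the HDL receptor, was lower, with a difference of -1.09 (SE 0.094, adjusted p = 0.000131), and Pltp, the phospholipid transfer protein, was higher, with a difference of 0.50 (SE 0.085, adjusted p = 0.00509). The other lower genes were the canalicular pumps Abcb11 (-0.36) and Abcb4 (-0.55), the bile salt uptake carrier Slc10a1 (-0.29) and the FGF coreceptor Klb (-0.32). The lower count was 4 without SM replicate 2 and 3 without NZB replicate 3. Of 14 LXR targets 5 were lower and 3 higher, with a median of -0.21, and all 14 lay above background. The higher ones were Lpl, lipoprotein lipase, which read 9.57, 8.94 and 9.14 in SM and 11.47, 11.35 and 11.20 in NZB and differed by 2.12 (SE 0.15, adjusted p = 3.88e-05), Pltp again, and the sterol exporter Abcg1 (0.39, SE 0.061, adjusted p = 0.00328). The lower ones were led by the lysophospholipid acyltransferase Lpcat3 (-0.51, SE 0.10, adjusted p = 0.0102) and the biliary sterol exporter Abcg8 (-0.47, SE 0.08, adjusted p = 0.00488), with Mylip (-0.46), Abcg5 (-0.36) and Srebf1 (-0.33). The lower count was 3 without SM replicate 2, NZB replicate 1 or NZB replicate 3. The LXR targets thus went in both directions, and Abca1 (-0.26), Fasn (-0.16) and Scd1 (0.21) were not called.

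Neither thyroid hormone receptor was called. Thra encodes the receptor found in most tissues. Its 3 probe sets, all above background, differed by -0.079, -0.14 and -0.11. The brightest read 8.20, 8.27 and 8.40 in SM and 8.32, 8.13 and 8.19 in NZB, with overlap (adjusted p = 0.554). Thrb encodes the main thyroid hormone receptor of hepatocytes, but its only probe set was at background level. It read 6.91, 6.72 and 7.10 in SM and 7.24, 7.14 and 7.22 in NZB. All NZB values exceeded all SM values, and the difference of 0.29 (SE 0.093, adjusted p = 0.0690) was called only without SM replicate 3 (adjusted p = 0.0179). Vdr, the vitamin D receptor, which hepatocytes barely make, was at background level, with values from 6.15 to 6.38 and a difference of 0.039 (SE 0.076, adjusted p = 0.782). Of 13 measured thyroid hormone targets, 9 were lower, none was higher and 4 were not called, with a median of -0.53. The 9 were among the 11 that lay above background, where 19.6% of genes were lower and the median was -0.052. Cyp7a1, Pck1 and Idh3a are shared with the lists above. Thrsp, a gene of lipid synthesis that responds to thyroid hormone, read 13.09, 13.01 and 13.06 in SM and 10.90, 12.10 and 11.24 in NZB, without overlap, and was lower, with a difference of -1.64 (SE 0.24, adjusted p = 0.00261). The mitochondrial glycerol phosphate dehydrogenase gene Gpd2 (-0.95), the malic enzyme gene Me1 (-0.70), Cpt1a (-0.59), the transporter gene Slc16a10 (-0.53) and Klf9 (-0.39) were also lower. Dio1, the deiodinase that thyroid hormone induces in liver, differed by -0.37 (SE 0.13, adjusted p = 0.0869). The lower count was 6 without SM replicate 2.

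The retinoic acid receptors, which bind all-trans retinoic acid as partners of RXR, were not called. Rarg read 7.59, 7.58 and 7.67 in SM and 7.82, 7.73 and 7.84 in NZB. The NZB livers were all above the SM livers, by a difference of 0.18 (SE 0.063, adjusted p = 0.0881). Its second probe set differed by 0.083. Rara read 7.55, 7.40 and 7.59 in SM and 7.69, 7.51 and 7.71 in NZB, with overlap, and differed by 0.13 (SE 0.08, adjusted p = 0.338). Rarb, itself a retinoic acid target, was at background level. It read 7.01, 6.85 and 6.88 in SM and 6.59, 7.31 and 7.12 in NZB, with overlap, and differed by 0.096 (SE 0.16, adjusted p = 0.736). Its spread within strains (SD 0.27) was larger than that of 98.1% of genes, with the lowest and the highest value both in NZB. Of 15 measured retinoid targets and retinoid-handling genes, 2 were higher, none was lower and 13 were not called, with a median of -0.051; 10 lay above background, where 8.83% of genes were higher. The 2 were the transglutaminase Tgm2 (0.34, SE 0.093, adjusted p = 0.0381) and Stra6, the retinol carrier, at background level (0.29, SE 0.071, adjusted p = 0.0248). Neither was called when SM replicate 2 or NZB replicate 3 was left out, and without SM replicate 3, NZB replicate 1 or NZB replicate 2 there was 1. Cyp26a1, the retinoic acid hydroxylase and a direct target, read 10.16, 9.46 and 9.91 in SM and 8.37, 9.93 and 9.59 in NZB, lowest in NZB replicate 1, where Rarb was lowest too.

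Among the steroid receptors, Nr3c2, the mineralocorticoid receptor, was lower in NZB near the background level. It read 7.67, 7.55 and 7.54 in SM and 7.34, 7.33 and 7.12 in NZB, and the strains did not overlap. The NZB mean of 7.27 was below the background level of 7.37, and the SM mean of 7.58 lay 0.21 above that level, a factor of 1.16. That factor is no lower bound, since the 95% interval of the strain difference was -0.50 to -0.14. Every liver read below 8.04, the highest reading of a Y-linked probe set. The measured difference was -0.32 (SE 0.079, adjusted p = 0.0274); its call ended when SM replicate 1, SM replicate 2 or NZB replicate 3 was left out (adjusted p = 0.0725, 0.0654 and 0.0918). Esr1, the estrogen receptor alpha of hepatocytes, read 9.96, 9.55 and 9.58 in SM and 9.86, 9.64 and 9.91 in NZB in its brightest probe set. The strains overlapped and SM replicate 1 was the highest. That difference was 0.11 (SE 0.12, adjusted p = 0.603), with an interval of -0.16 to 0.37. The 2 other Esr1 probe sets, both at background level, were higher in NZB. The first read 6.89, 6.98 and 6.71 in SM and 7.41, 7.35 and 7.44 in NZB, without overlap, and differed by 0.54 (SE 0.079, adjusted p = 0.00240). The other read 6.61, 6.68 and 6.59 in SM and 6.99, 6.91 and 7.04 in NZB, again without overlap, and differed by 0.35 (SE 0.064, adjusted p = 0.00693). Both were called in all 11 settings that kept them, with each array left out among these, and the mean of the 3 probe sets differed by 0.33 (adjusted p = 0.0118). Pgr, the progesterone receptor of the reproductive tract, was at background level, at 5.12 to 5.37, and differed by 0.12 (SE 0.067, adjusted p = 0.278).

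Pparg, the fatty acid receptor of adipocytes and macrophages, was the only member above the background level of 7.37 that was called higher in NZB. It read 7.61, 7.50 and 7.64 in SM and 7.99, 7.85 and 7.75 in NZB. The lowest NZB value was 0.11 above the highest SM value. Every liver read below 8.04, the highest reading of a Y-linked probe set, so Pparg was not above background by that rule. The difference was 0.28 (SE 0.078, adjusted p = 0.0435), a factor of 1.21. The call ended with array medians aligned (adjusted p = 0.0712) and without any 1 array other than NZB replicate 3 (adjusted p up to 0.146, without SM replicate 2). Markers of Kupffer cells, the macrophages of liver, moved with strain as well: 4 of 7 were higher and 1 was lower, with a mean level of 9.22 to 9.39 in SM and 9.45 to 9.71 in NZB. All 7 markers lay above background, where 8.83% of genes were higher and 19.6% lower. The lower one, Marco, was not called without NZB replicate 1 or NZB replicate 3, and the part of these cells in the Pparg result was not tested. Ppard, the widely made delta form, read 7.22, 7.40 and 7.45 in SM and 7.18, 7.06 and 7.31 in NZB, with overlap and just under the background level, and differed by -0.17 (SE 0.088, adjusted p = 0.232). Of 12 measured genes known as targets of these receptors, 1 was higher, 3 were lower and 8 were not called, with a median of -0.10, and 6 of the 12 were at background level. Among genes above it 19.6% were lower and 8.83% higher. The fatty acid transporter gene Cd36 was lower, with a difference of -1.81 (SE 0.11, adjusted p = 2.03e-05) and so was the lipase inhibitor gene G0s2, at -1.76 (SE 0.40, adjusted p = 0.0201). The higher gene was Lpl. The third lower gene was the lipid droplet gene Plin4, with a mean of 7.64 in SM and a mean at background level, 6.77, in NZB. Over all 6 arrays Plin4 was at background level, so 2 of the 3 lower genes lay above it. The Plin4 call held in 7 of 13 settings and ended without any 1 array other than SM replicate 1. The lower count was 2 without SM replicate 2, and it was 1 without NZB replicate 2 or NZB replicate 3, where G0s2 was not called (adjusted p = 0.0739 and 0.0575). Adipoq, a PPAR gamma target of adipocytes, was at background level, at 4.48 to 5.25, and Fabp4 read 7.45 to 8.61, highest in SM replicate 1.

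The NR4A receptors are orphan receptors whose genes are switched on within minutes by stress, hormones or glucagon. None of the 3 was called, and the values of a gene lay within at most 0.26 of each other over the 6 livers. Nr4a1 read 7.89, 7.95 and 8.02 in SM and 7.94, 8.02 and 8.04 in NZB and differed by 0.049 (SE 0.065, adjusted p = 0.673). Nr4a3 read 7.92, 7.90 and 7.92 in SM and 8.10, 7.97 and 8.00 in NZB, without overlap, and differed by 0.11 (SE 0.062, adjusted p = 0.271). Nr4a2 read 7.77, 7.73 and 7.82 in SM and 7.81, 7.79 and 7.99 in NZB, differed by 0.089 (SE 0.073, adjusted p = 0.462), and its 5 dimmer probe sets, all at background level, differed by -0.042 to 0.057. Another immediate early gene did differ: the zinc finger gene Egr1 read 7.43, 7.84 and 7.41 in SM and 9.75, 10.13 and 8.81 in NZB, without overlap, and was higher in NZB by 2.00 (SE 0.28, adjusted p = 0.00202). Of 16 measured immediate early genes, 2 were higher (Egr1 and, at background level, Atf3: 0.26, SE 0.072, adjusted p = 0.0409), 2 were lower and 12 were not called, with a median difference of 0.084. That is 25.0% called, beside 18.3% of all 18193 genes. Of the 16, 10 lay above background, where 8.83% of genes were higher and 19.6% lower. The 2 lower immediate early genes were Klf4, at background level, at -0.34 (SE 0.068, adjusted p = 0.0114), and Btg2 at -0.30 (SE 0.085, adjusted p = 0.0452). Egr1 was the only higher one without SM replicate 1 or 3 or any 1 NZB array, and 1 gene was lower without SM replicate 2 or 3, NZB replicate 1 or NZB replicate 3. Fos, at background level, read 5.82, 5.96 and 5.98 in SM and 5.84, 6.61 and 5.72 in NZB, highest in NZB replicate 2.

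Of 12 measured receptors outside the listed set, 3 were lower and none was higher: the xenobiotic receptor gene Nr1i2 (-1.18, SE 0.11, adjusted p = 0.000159), the clock receptor gene Nr1d2 (-0.69, SE 0.11, adjusted p = 0.00321) and the fatty acid receptor gene Ppara (-0.43). These 3 were among the 7 that lay above background, where 19.6% of genes were lower. The lower count was 2 without SM replicate 2. Markers of some cell types other than Kupffer cells were called as well, and their part in the receptor results was not tested. Beside the marker counts that follow, 18.3% of all 18193 genes were called, and 28.4% of those above background. Among 7 sinusoidal endothelial markers 3 were higher and 2 lower, with a mean level of 9.14 to 9.23 in SM and 9.21 to 9.32 in NZB. The higher count was 2 without any 1 array, since Fcgr2b (0.29) was then not called (adjusted p = 0.0667 to 0.118). Of 6 B and plasma cell markers 3 were higher, Ighm (4.35), Jchain and Ms4a1 (0.38), at a mean level of 6.58 to 6.66 in SM and 8.02 to 8.47 in NZB, while Cd79a, Cd79b and Ms4a1 were at background level. Jchain was at background level in SM, at a mean of 6.09 against 10.37 in NZB, and so was at least 8.00-fold higher in NZB. Of 6 T and NK cell markers, 3 were higher, with a mean level of 6.19 to 6.30 in SM and 6.49 to 6.52 in NZB and 5 at background level; the count was 1 without SM replicate 1, SM replicate 2, NZB replicate 1 or NZB replicate 2. None of 8 stellate cell markers (7.98 to 8.16 in SM and 7.94 to 8.13 in NZB) and none of 5 cholangiocyte markers (6.88 to 6.98 in SM and 6.88 to 6.89 in NZB) was called by limma, with 4 and 1 at an unadjusted p below 0.05; without SM replicate 1 there was 1 stellate call. Of 3 erythroid markers, Alas2 was lower (-1.09), at a mean level of 6.51 to 6.69 in SM and 6.12 to 6.41 in NZB, and was not called without NZB replicate 1 or NZB replicate 3. Among 6 hepatocyte markers, only Tat was called.

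Over all 82 probe sets of the members, 10 were called (12.2%, against 14.8% of all probe sets), 4 higher and 6 lower, and 36 lay above background. Of the genes, 12 had 1 probe set and 20 had several, up to 6. Besides the 7 brightest ones, the called probe sets were those of Esr1 and Nr2f2 described above. Probe sets of 1 gene differed in sign in 15 of the 20 genes, with background-level probe sets counted. Hnf4g, Vdr, Esrrg, Ppard and Pgr, among the 15, had no probe set above background. The share among all genes on the array with several probe sets was not computed. The 5 genes whose probe sets all differed in the same direction were Nr2f6, Rarg and Esr1, above 0, and Thra and Esrra, below 0.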

How the data were processed

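Expression was measured on 6 arrays, 3 per strain. The authors deposited 1 table of RMA values for 45037 probe sets, per the submitters' processing notes, and no array intensities were used here. The table does not name its scale. The authors' values were taken as log2, since the highest, 14.9, exceeds the natural-log limit of a 16-bit scanner (11.1) and lies below the log2 limit of 16. RMA as usually run normalises between arrays, so a shift shared by most genes cannot be seen. The platform annotation gave 1 gene for 34945 probe sets, more than 1 for 932 and no gene for 9160, and 34741 of the first kind were matched to RefSeq GRCm38.p6.

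NZB minus SM was fitted by lmFit and eBayes (limma, version 3.58.1; R, version 4.3.3), with Benjamini-Hochberg adjustment over all probe sets and a threshold of 0.05. The procedure was tested on simulated data. The receptors, the other gene lists and the background rule were chosen with earlier results of these data known. Every measured member is named; of the other lists, up to 2 called genes per direction with the largest differences are named, and any other gene was chosen after its values were seen. Signal over background, not read depth, and the number of arrays limit the precision. The 14 alternative settings were 2 other scalings, trended and robust variances, a fit over genes only, 2 filters on probe sets, a replicate block, each array left out in turn, and the mean of a gene's probe sets. The background level was also set by 3 other rules.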

Additional observations from a re-analysis of the deposited data

How the results depend on the processing

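Among all probe sets, 6659 were called with 6 arrays and 3741 to 6386 when 1 array was left out. Called member genes went from 7 to between 2 and 6 and called member probe sets from 10 to between 4 and 9, with fewer samples in each of these fits. With the mean of a gene's probe sets 4 member genes were called, and the differences of Nr2c2 (0.0001) and Esrrg (-0.2041) turned positive and negative, since that mean takes in dimmer probe sets. Over the 14 settings the 7 called members kept their call in 66 of 97 fits, and their sign turned in those 2 cases. Of the 25 uncalled members, 3 (Nr2f6, Thrb and Esr1) were called under some setting and 6 turned sign. With 14 members above the highest Y-linked reading, 28 above the lower chemosensory percentile and 23 above background on every array, the count of 24 depends on where the level is set. The median difference of the 24 was 0.023 as deposited, -0.0095 with medians aligned and 0.08 with quantile normalisation. With the replicate number as a block, 6006 probe sets, 5 member genes and 9 member probe sets were called; the calls of Pparg and Esrrg ended, and no other member call changed. In the labels the strains share only the number. The deviations of same-numbered arrays from their strain means correlated at 0.037, -0.054 and 0.025. Whether same-numbered mice shared a dissection day or an array batch was not tested.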
